A study of Mus musculus with 48 samples.

Results

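The presynaptic vesicle and release machinery was followed here as a set of 35 named genes, the members, in mouse brain after experimental stroke. The members were taken from a list of gene symbols, each of which was found once among the 46983 genes of the count files. All 35 carried enough counts to be tested, together with 19970 genes in all.

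A nerve terminal releases transmitter when a vesicle is loaded by transporters, held near the release site by synapsins and Rab3 effectors, docked and primed at the active zone, and fused by the SNARE proteins once a synaptotagmin binds calcium. Complexins clamp and assist that fusion, NSF and its adaptors take the used SNARE complexes apart, and dynamin, amphiphysin and synaptojanin retrieve the membrane. In cortex the glutamatergic terminals, which carry Slc17a7 or Slc17a6, greatly outnumber the GABAergic ones, and the fast-spiking parvalbumin interneurons are known for Vamp1 and Syt2 at their terminals. The messenger RNA of these proteins is made largely in the neuronal cell body, so a tissue library measures the cells whose somata are in the piece and not the terminals themselves.

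The animals were male C57Black/6 mice aged 3 months. MCAO, the permanent occlusion of the middle cerebral artery by coagulation and transection, was compared at 3 h, 12 h, day 1, day 3 and day 7 with a sham operation that left the vessel open, and with intact cortex as the control. The 48 libraries comprised 4 control libraries, 4 sham libraries at each of the 5 times, 5 MCAO libraries at 3 h, 12 h, day 3 and day 7, and 4 MCAO libraries on day 1. The sources differ on the tissue taken, given either as damaged cortex with its spared surroundings or as most of the hemisphere on the side of the lesion, and summed striatal markers ran from 199.9 to 4604 CPM over the 48 libraries. A mean over such a piece mixes its parts, and in a bulk sample fewer cells of a type and less RNA per cell cannot be told apart.

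The libraries held 1522668 to 2826735 counts on genes, and the members took 1.26% to 2.1% of them with a median of 1.88%. Some libraries stood apart in their microglial markers, a choice made after the data were seen and without an outlier rule. MCAO day 3 replicate A had a summed level of 10 microglial markers of 773 CPM (counts scaled to a library total of 1000000), against 1629.9 to 3176 CPM in the other 4 MCAO day 3 libraries, and MCAO day 7 replicate C had 4519.6 CPM against 1053 to 1496 CPM in its group, so the medians and counts of calls on those days are also given without them. Rorb, a transcription factor of granular-layer neurons and a marker of cortex, was at 178 to 403 CPM in the control libraries.

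As a module the members had a median near 0 at 3 h and a negative median from day 1 onwards. The median log2 fold change of the 35 members, MCAO against sham, was -0.02 at 3 h, -0.09 at 12 h, -0.19 on day 1, -0.32 on day 3 and -0.34 on day 7. Over all genes tested the median was 0.00, 0.01, 0.02, 0.01 and 0.06 at the same times. The number of members with a negative value was 19, 20, 29, 32 and 27 of 35, and on day 3 the values ran from -0.67 to 0.34. Without MCAO day 3 replicate A and MCAO day 7 replicate C the median was -0.47 on day 3 and -0.30 on day 7. With 1 library left out it ran from -0.04 to 0.02 at 3 h, from -0.13 to -0.017 at 12 h, from -0.24 to -0.12 on day 1, from -0.47 to -0.21 on day 3 and from -0.41 to -0.31 on day 7. The value nearest 0 came without sham 3 h replicate D, sham 12 h replicate C, MCAO day 1 replicate D, MCAO day 3 replicate C and MCAO day 7 replicate C, and the most negative day 3 value without MCAO day 3 replicate A.

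The mean level of the 35 members in a library, as log2(CPM + 1), showed the same order. On day 3 it was 8.35, 8.07, 7.71, 7.99 and 7.74 in MCAO replicates A to E and 8.38, 8.27, 8.30 and 8.26 in sham replicates A to D. Replicate A of the MCAO group lay inside the sham range and the other 4 lay below it. On day 7 the level was 8.12, 8.13, 7.75, 8.20 and 8.20 in MCAO replicates A to E and 8.42, 8.40, 8.36 and 8.62 in sham replicates A to D, and all 5 MCAO libraries lay below all 4 sham libraries. On day 1 all 4 MCAO libraries lay below sham as well, at 8.28, 8.22, 8.29 and 7.98 against 8.41, 8.35, 8.37 and 8.34. At 3 h and 12 h the groups overlapped.

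**Figure D1:**
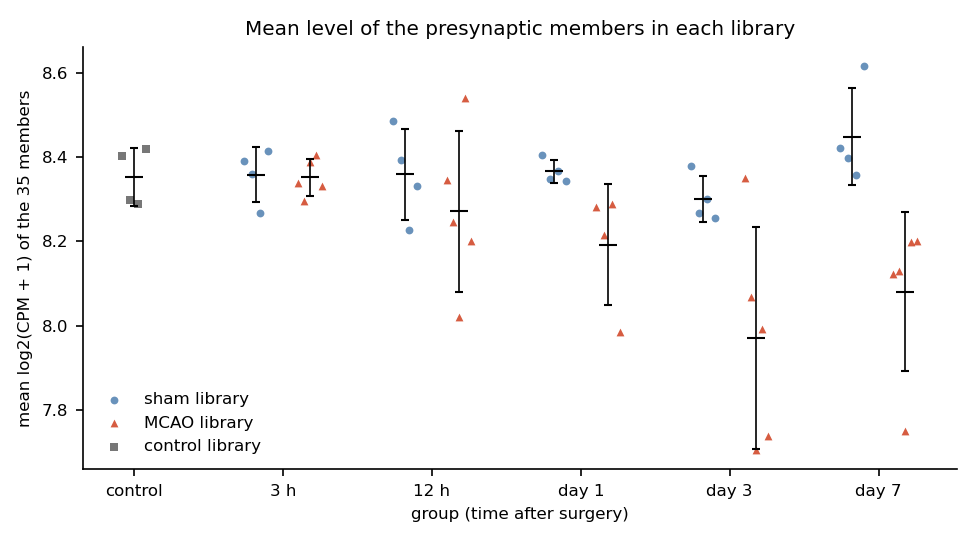
Mean log2(CPM + 1) of the 35 members (vertical axis) in each of the 48 libraries, by group and time after surgery (horizontal axis). Points are libraries, and the bar and whiskers are the group mean and SD. The 3 h groups lie together, the day 1 and day 7 MCAO libraries lie below all sham libraries of their day, and 1 MCAO day 3 library lies within the sham range.

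Calls were made in edgeR's quasi-likelihood test where the p-value, adjusted by Benjamini-Hochberg over all genes, was under 0.01, provided that the gene's log2 fold change exceeded 0.58 in size. By that rule no member was higher in MCAO than in sham at any of the 5 times, at which 0.0901%, 0.346%, 0.0801%, 3.76% and 2.07% of all genes were called higher. None was called lower at 3 h, 12 h or day 1, where 0.02%, 0.0651% and 0.01% of all genes were called lower. At an unadjusted p under 0.05 the numbers in either direction were 0, 1 and 8 members at those times, against 8.45%, 14.6% and 8.8% of all genes, and DESeq2 called none by the rule. On day 3, 2 of 35 members were called lower (Snap25 and Rims1), with 0.26% of all genes called lower. On day 7, 4 of 35 were called lower (Vamp1, Rph3a, Rims2 and Cplx1), with 1.43% of all genes called lower. With the adjusted p under 0.05 and no fold threshold, 6 members were lower on day 3 and 12 on day 7, against 1.69% and 3.98% of all genes. How many of all genes had groups without overlap was not counted. Such separation alone therefore did not show a change of a member that was not called.

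**Figure D2:**
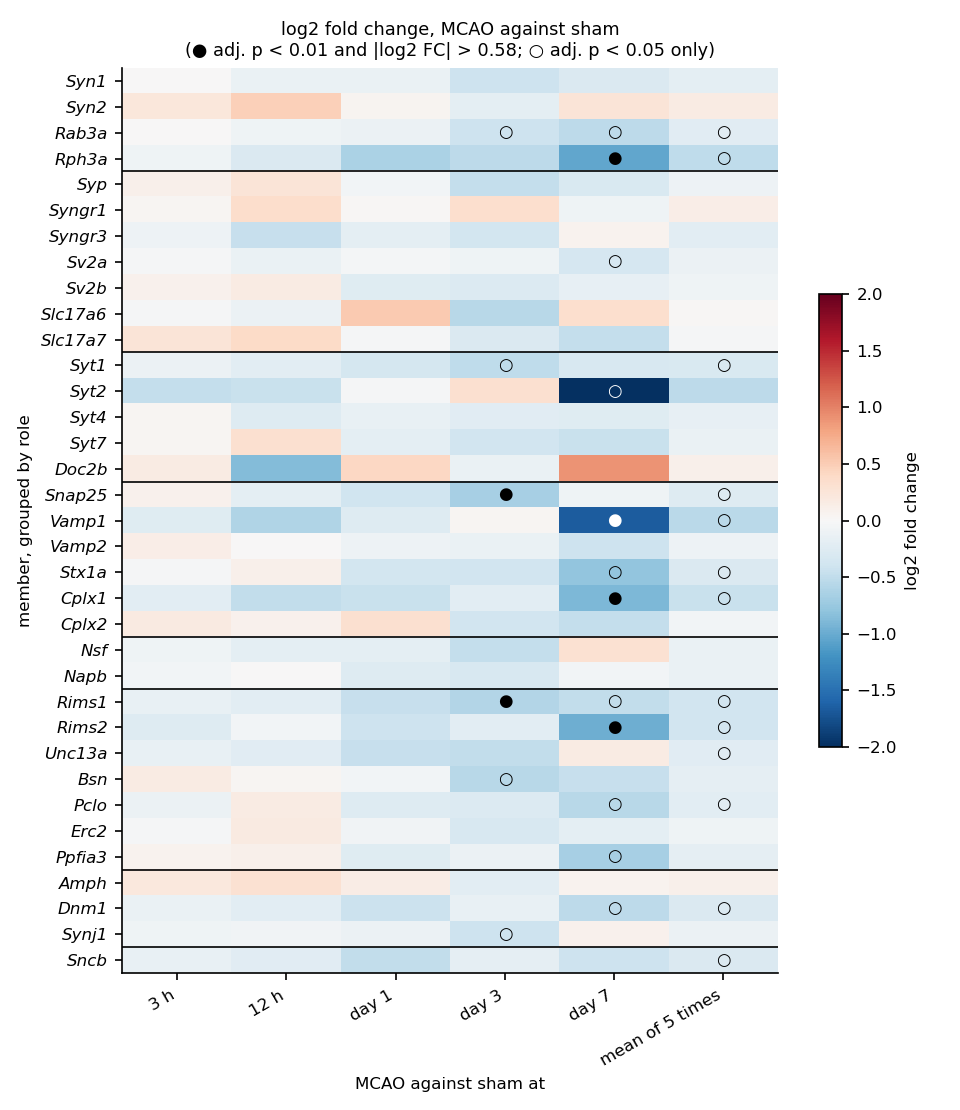
Log2 fold change of MCAO against sham (colour, from blue for lower to red for higher) for the 35 members (rows, in blocks by role) at each time and for the mean of 5 times (columns). Filled circles mark calls by both thresholds, and open circles an adjusted p under 0.05 without the fold threshold. The filled circles are Snap25 and Rims1 on day 3 and Vamp1, Rph3a, Rims2 and Cplx1 on day 7, all in blue.

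Among the SNARE proteins and complexins, 2 of 6 members fell on day 7 and 1 on day 3. Vamp1 (ENSMUSG00000030337.16, chr6:125215551-125245964 on the plus strand), the synaptobrevin of fast-firing neurons, had the most negative value of the called members. On day 7 its level was 33.5, 46.3, 36.3, 58.1 and 55.7 CPM in MCAO replicates A to E and 164, 86.3, 151 and 182 CPM in sham replicates A to D. Every MCAO library lay below every sham library, and also below the 4 control libraries at 67.2 to 204 CPM. Relative to sham its log2 fold change was -1.66 ± 0.32 (SE, adjusted p 5.9e-04), so Vamp1 fell by 68.4%. At the earlier times the groups overlapped, with MCAO libraries at 61.4 to 125 CPM and sham libraries at 57.9 to 113 CPM on day 3.

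Cplx1 (ENSMUSG00000033615.9, chr5:108518554-108550024 on the minus strand), a complexin that clamps the fusion complex, fell on day 7. Its level was 391, 432, 305, 380.0 and 499 CPM in MCAO replicates A to E against 728, 559, 624 and 1072 CPM in sham replicates A to D, with no overlap. Sham replicate D was the highest of all 48 libraries for this gene. The log2 fold change was -0.89 ± 0.20 (SE, adjusted p 0.00329), and it was -0.68 with an adjusted p of 0.0541 without sham replicate D and -0.81 with an adjusted p of 0.0185 without MCAO replicate C, so the call rested on those libraries. The log2 fold change of Cplx1 was already -0.49 at 12 h and -0.44 on day 1, neither of which passed (adjusted p 0.239 and 0.564).

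Snap25 (ENSMUSG00000027273.13, chr2:136713453-136782428 on the plus strand), a SNARE of the terminal's plasma membrane, fell on day 3. Its level was 1269, 942, 876, 865 and 733 CPM in MCAO replicates A to E and 1725, 1547, 1320.2 and 1367 CPM in sham replicates A to D. The highest MCAO library, replicate A, lay just under the lowest sham library. Against sham the log2 fold change was -0.67 ± 0.16 (SE, adjusted p 0.00430), and the adjusted p rose to between 0.0126 and 0.0297 when MCAO replicate C, D or E or sham replicate A or B was left out. On day 7 Snap25 was at 634 to 1177 CPM in MCAO and 820.4 to 1236 CPM in sham, with a log2 fold change of -0.09. The 4 control libraries lay at 1262 to 1404 CPM.

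The other members of this role did not meet the rule. Stx1a, the partner of Snap25 on the target membrane, had a log2 fold change of -0.79 ± 0.21 (SE, adjusted p 0.0114) on day 7 with no overlap between the groups. Cplx2 also had all 5 MCAO day 7 libraries below sham, at -0.47 (adjusted p 0.109), and a fall of Cplx2 was not shown. Vamp2, the main synaptobrevin of cortical vesicles, was at -0.42 with a 95% interval of -0.82 to -0.02.

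Among the tethering proteins, Rph3a (ENSMUSG00000029608.10, chr5:120940499-121010092 on the minus strand), which encodes rabphilin, an effector that binds Rab3a on the vesicle, fell on day 7. It was at 142, 169, 111, 147 and 219 CPM in MCAO replicates A to E and 332, 280.4, 249 and 439 CPM in sham replicates A to D. The groups did not overlap, and the control libraries, at 256 to 350.0 CPM, lay above every MCAO day 7 library too. On the log2 scale the change from sham was -1.04 ± 0.19 (SE, adjusted p 2.3e-04), and over the mean of the 5 times it was -0.51 ± 0.08 (SE, adjusted p 9.58e-06). On day 1 and day 3 the value was -0.64 and -0.53, with adjusted p-values of 0.204 and 0.0679.

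Rab3a, the small GTPase of the vesicle surface, had the same sign with a smaller size. On day 7 it was at 581, 586, 485, 577 and 562 CPM in MCAO replicates A to E and 770.1, 795, 753 and 888 CPM in sham, with no overlap, a log2 fold change of -0.52 ± 0.12 (SE) and an adjusted p of 0.00450. The p-value passed but the fold did not reach 0.58. Synapsin 1, the product of Syn1, ties vesicles to the reserve pool, and its log2 fold change was -0.42 on day 3 and -0.29 on day 7 (adjusted p 0.122 and 0.304).

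Syn2, which encodes the second synapsin, differed from the rest of its role. Its level on day 3 was 1591, 868, 441, 1188 and 622 CPM in MCAO replicates A to E and 1033, 886, 1408 and 998 CPM in sham replicates A to D. The MCAO libraries reached from less than the lowest sham library to more than the highest. On day 7 the MCAO libraries were at 1531, 1333, 1058, 1616 and 807 CPM and the sham libraries at 925, 1296, 932 and 1080.3 CPM, again overlapping, and the log2 fold change was 0.26 with a 95% interval of -0.21 to 0.74. At 12 h it was 0.48 (adjusted p 0.358).

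At the active zone, Rims2 fell on day 7 and Rims1 fell on day 3, both encoding RIM scaffold proteins that place calcium channels and vesicles together. Rims1 (ENSMUSG00000041670.15, chr1:22286251-22805994 on the minus strand) was at 527, 464, 322, 343 and 345 CPM in MCAO replicates A to E and 622, 572, 594 and 626 CPM in sham replicates A to D on day 3. The sham libraries lay within a narrow band, and all 5 MCAO libraries lay below it, replicate A closest. The log2 fold change was -0.59 ± 0.14 (SE, adjusted p 0.00501), close to the fold threshold. The call was lost when any of MCAO replicates C, D and E or any sham day 3 library was left out, with adjusted p-values of 0.0104 to 0.0299.

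Rims1 was below sham on day 1 in 4 of 4 MCAO libraries, at 367 to 552 CPM against 567 to 686 CPM, with a log2 fold change of -0.46 and an adjusted p of 0.267. On day 7 it was -0.50 ± 0.14 (SE, adjusted p 0.0214), and without MCAO day 7 replicate E it passed at -0.62 (adjusted p 0.00547). Over the mean of the 5 times its log2 fold change was -0.38 ± 0.07 (SE, adjusted p 2.42e-05), a size under the fold threshold.

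Rims2 (ENSMUSG00000037386.15, chr15:39198261-39684372 on the plus strand) was at 39.2, 44.3, 43.4, 47.98 and 67.6 CPM in MCAO replicates A to E and 100.1, 85.9, 75.2 and 119.5 CPM in sham replicates A to D on day 7. MCAO replicate E lay nearest the sham libraries, and none overlapped. Its log2 fold change against sham was -0.98 ± 0.21 (SE, adjusted p 0.00171), and -0.86 with an adjusted p of 0.0169 without sham replicate D. On day 3 the groups overlapped, at 52.4 to 86.5 CPM in MCAO and 57.2 to 93.9 CPM in sham.

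The 5 remaining active zone members did not meet the rule. Bsn and Pclo encode the giant scaffold proteins of the release site, and their log2 fold changes were -0.55 and -0.28 on day 3 (adjusted p 0.0288 and 0.279) and -0.46 and -0.55 on day 7 (adjusted p 0.0774 and 0.0134). For Unc13a, the priming factor Munc13-1, the day 3 value was -0.49 (adjusted p 0.0523) and the day 7 value 0.17 (adjusted p 0.573). Ppfia3, a liprin that anchors the scaffold, was at -0.66 on day 7 (adjusted p 0.0144), and Erc2 stayed between -0.33 and 0.18 at the 5 times.

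**Figure D3:**
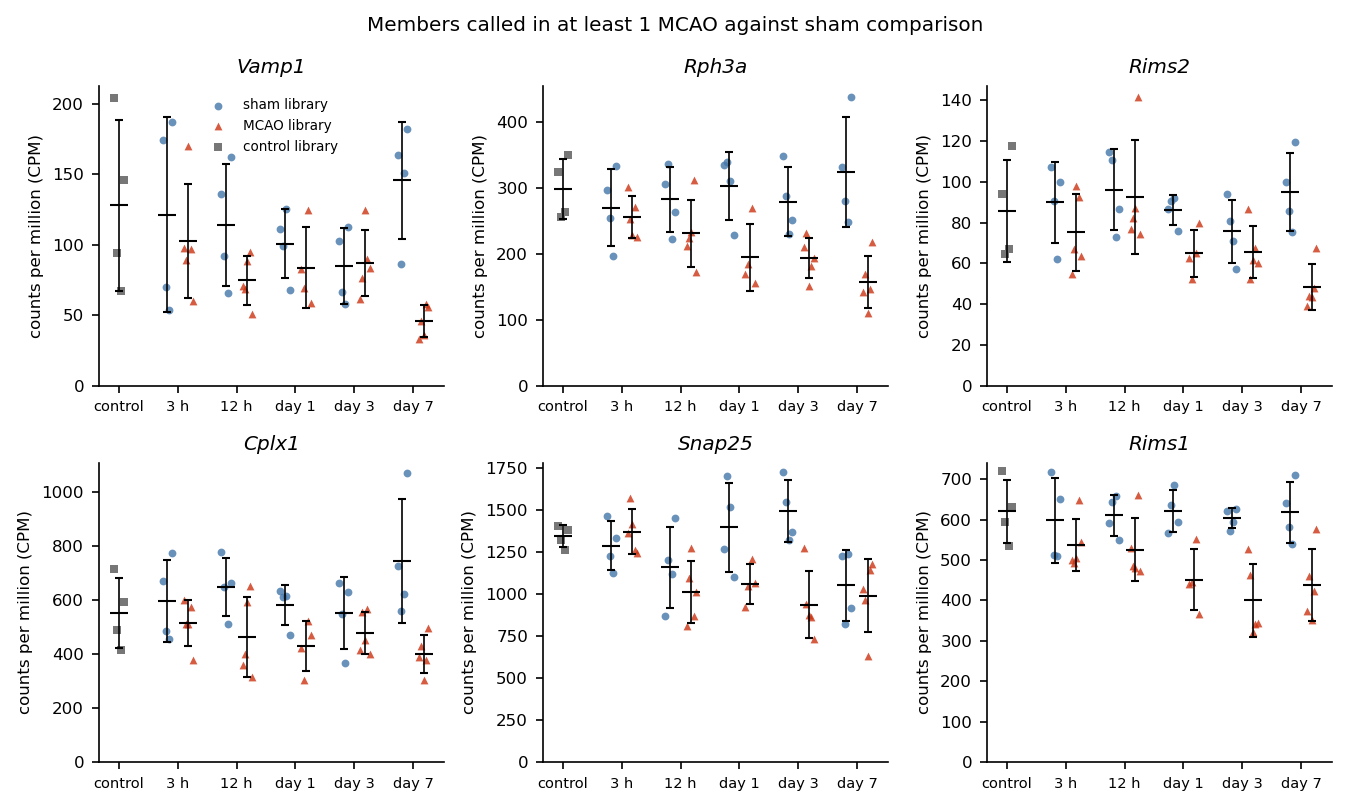
Level in CPM (vertical axes, from 0) of the 6 members that were called at 1 time or more, in each control, sham and MCAO library by time after surgery (horizontal axes). Points are libraries and the bar with whiskers is the mean and SD. The MCAO day 7 points of Vamp1, Rph3a, Rims2 and Cplx1 and the MCAO day 3 points of Snap25 and Rims1 lie below all sham points of the same day.

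Among the calcium sensors, no member was called. Syt1, the sensor for fast release and the member with the highest mean level, was at 3949, 3572, 2281, 2707 and 2406 CPM in MCAO day 3 replicates A to E and 4458, 4121, 3858 and 4443 CPM in sham replicates A to D. Of the MCAO libraries 4 lay below the sham range and replicate A lay inside it. The change from sham was, on the log2 scale, -0.50 ± 0.14 (SE, adjusted p 0.0135), and without MCAO day 3 replicate A it met the rule at -0.62 with an adjusted p of 0.00101. On day 7 Syt1 was at 3308, 2996, 2205, 3172 and 3832 CPM in MCAO and 3935, 3599.7, 4078 and 3866 CPM in sham, with a log2 fold change of -0.32 (adjusted p 0.139).

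Syt2, the fast sensor of parvalbumin interneurons and of subcortical neurons, had the most negative value of any member on day 7 without meeting the rule. It was at 28.3, 19.8, 10.1, 14.9 and 29.4 CPM in MCAO replicates A to E and 96.7, 41.1, 69.2 and 119 CPM in sham replicates A to D, with no overlap. Its log2 fold change was -1.99 ± 0.63 (SE, adjusted p 0.0341), and its standard error was the largest of the 35. The control libraries alone ran from 26.0 to 118 CPM. Over the 48 libraries the SD within groups of log2(CPM + 1) was 1.12 for Syt2 and 0.138 for Sv2a, the widest and the narrowest of the members.

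Syt7, a sensor of slow release and facilitation, was at -0.38 on day 3 and -0.45 on day 7, and Syt4 stayed between -0.25 and 0.04. Doc2b, a high-affinity sensor tied to spontaneous release, had few counts, from 9 upwards in a library. Its values of -0.86 at 12 h and 0.90 on day 7 had 95% intervals of -1.77 to 0.05 and -0.02 to 1.83, and both held 0.

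None of the 7 proteins of the vesicle membrane and transmitter loaders was called at any time, and the role's median log2 fold change was -0.29 on day 3 and -0.17 on day 7. Slc17a7, the main vesicular glutamate transporter of cortex, was at 485, 446, 308, 594 and 509 CPM in MCAO day 7 replicates A to E and 515, 666, 571 and 860.0 CPM in sham, with a log2 fold change of -0.48 ± 0.20 (SE, adjusted p 0.132). Slc17a6, its counterpart in thalamus and other subcortical neurons, was at 0.34 with a 95% interval of -0.36 to 1.03. For Syp, which encodes synaptophysin, the value was -0.48 on day 3 and -0.31 on day 7 (adjusted p 0.229 and 0.450).

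Sv2a, a vesicle glycoprotein and the target of the drug levetiracetam, had a log2 fold change of -0.34 ± 0.11 (SE, adjusted p 0.0426) on day 7 with no overlap between the groups. Syngr1, which encodes a synaptogyrin, was the only member with every MCAO library above every sham library at any time: on day 3 it was at 196, 201, 229, 208 and 232 CPM in MCAO and 187, 164, 150.4 and 171 CPM in sham, with a log2 fold change of 0.34 ± 0.21 (SE, adjusted p 0.3598). How many of all genes separated in this way was not counted, so a rise of Syngr1 was not shown. Sv2b and Syngr3 stayed between -0.46 and 0.16 at the 5 times.

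For the retrieval and recycling members no call was made. Dnm1, the dynamin that pinches off retrieved membrane, was at -0.44 on day 1 and -0.52 on day 7, below all sham libraries on both days (adjusted p 0.325 and 0.0191). Synj1, the phosphatase that uncoats retrieved vesicles, was at -0.41 on day 3 and 0.09 on day 7 (adjusted p 0.0427 and 0.727), and Amph, which recruits dynamin, at -0.20 and 0.07. Nsf, the ATPase that separates used SNARE complexes, was at -0.48 on day 3 and 0.31 on day 7 (adjusted p 0.0713 and 0.274), and Napb, its adaptor, at -0.32 and -0.05. Sncb, which encodes beta-synuclein, a protein of the terminal, was at 383, 523, 690.1 and 406 CPM in MCAO day 1 replicates A to D and 689, 774, 692 and 674 CPM in sham day 1 replicates A to D, with overlap and a log2 fold change of -0.50 ± 0.22 (SE, adjusted p 0.508), and its value on day 7 was -0.42.

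Promoter sequences are shown for the called members that have a single start in the RefSeq table for GRCm38.p6, since these genes moved in the same direction. The table held 28 of the 35 members. Each line gives the 250 bases before the start, 5′ to 3′ on the gene's strand, with GGGCGG or its reverse complement CCGCCC, the letters of the GC box bound by Sp1-type factors, in capitals. The windows are chr6:125215331-125215580 on the plus strand for Vamp1, chr5:108550028-108550277 on the minus strand for Cplx1 and chr1:22806159-22806408 on the minus strand for Rims1.
Vamp1: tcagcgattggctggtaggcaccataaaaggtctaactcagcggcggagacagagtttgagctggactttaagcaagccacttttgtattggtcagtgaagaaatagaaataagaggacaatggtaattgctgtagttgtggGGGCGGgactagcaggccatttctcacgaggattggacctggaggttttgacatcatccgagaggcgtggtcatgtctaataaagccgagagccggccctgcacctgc
Cplx1: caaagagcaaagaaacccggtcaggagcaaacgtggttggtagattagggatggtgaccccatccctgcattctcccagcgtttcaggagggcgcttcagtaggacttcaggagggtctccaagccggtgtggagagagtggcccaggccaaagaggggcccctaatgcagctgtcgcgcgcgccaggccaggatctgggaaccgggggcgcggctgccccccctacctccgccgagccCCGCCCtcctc
Rims1: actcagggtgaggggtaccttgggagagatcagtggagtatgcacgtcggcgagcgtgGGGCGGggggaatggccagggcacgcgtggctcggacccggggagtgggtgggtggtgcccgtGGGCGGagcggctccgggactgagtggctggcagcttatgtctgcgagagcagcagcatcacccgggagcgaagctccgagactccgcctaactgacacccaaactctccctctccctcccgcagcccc
Vamp1 and Cplx1 held 1 match each and Rims1 held 2, and GC made up 50.4%, 64.8% and 68% of the letters. The letters were found on either strand for 19 of the 28 members (67.9%) and for 35.4% of 27025 genes. A gene was counted when any of its windows held a match. The 27025 genes were not matched to the members in expression or GC content. Neither this share nor that of the next motif therefore showed an enrichment in presynaptic genes. The motif TTCAGCACC, part of the element bound by the neuronal repressor REST, was found in 2 of 28 members' windows, Ppfia3 and Syn1, and in 0.348% of genes, and neither of those was called.

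The number of calls on day 3 rested on single libraries. Without MCAO day 3 replicate A, 6 members met the rule on day 3 (Snap25, Rims1, Syt1, Bsn, Nsf and Unc13a), and without both libraries that stood apart 7 did, Syt7 in addition. The share of all genes called lower rose with them, from 0.26% to 1.33% and 1.56%. Leaving out MCAO day 3 replicate C, D or E or sham day 3 replicate A or B left 0. Over all genes 11, 23, 19, 25 and 25 were then called lower, against 52 by the main rule. On day 7, Vamp1 and Rph3a met the rule under all 18 alternatives tried, with log2 fold changes of -1.84 to -1.54 and -1.19 to -0.88, Rims2 under 17 of 18 and Cplx1 under 13 of 18. Leaving out sham day 7 replicate D left 2 members called, with 84 of 19928 genes called lower, against 285 of 19970 by the main rule. Without both libraries that stood apart 3 were called (Rph3a, Vamp1 and Rims2), with 0.755% of all genes called lower.

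The difference was also averaged over the 5 times, MCAO against sham, in the same fit. No member met both thresholds there, while 0.386% of all genes were called lower and 4.51% higher, and the median of the members was -0.17 against 0.03 for all genes. With the adjusted p under 0.05 alone, 13 of 35 members were lower and 0 higher, where 5.11% of all genes were lower and 9.17% higher. The 13 were Rab3a, Rph3a, Syt1, Snap25, Vamp1, Stx1a, Cplx1, Rims1, Rims2, Unc13a, Pclo, Dnm1 and Sncb, and none of the vesicle membrane proteins and transmitter loaders was among them. At an unadjusted p under 0.05 there were 18 members and 26.4% of all genes, and DESeq2 called none by the main rule.

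Whether the difference changed between successive times was tested directly, as the change of the MCAO effect. No member met the rule in any of the 4 steps, in which 0.01%, 0.01%, 0.01% and 0% of all genes did. At an unadjusted p under 0.05 the numbers of members in these steps were 0, 0, 3 and 9 of 35, against 7.12%, 5.08%, 8.82% and 16.2% of all genes, and DESeq2 called none by the rule. The effect on Vamp1 became more negative by 1.69 on the log2 scale (SE 0.45, adjusted p 0.0734), and that on Snap25 less negative by 0.58 (SE 0.23, adjusted p 0.205). For Nsf and Unc13a the effect moved up by 0.78 and 0.66 (adjusted p 0.111 and 0.161), and for Rims2 and Cplx1 down by 0.77 and 0.69 (adjusted p 0.193 and 0.229). Without both libraries that stood apart, 2 members, Nsf and Unc13a, met the rule for a higher effect on day 7 than on day 3, with 0.453% of all genes called higher. Neither is among the 6 members called on day 3 or day 7, for which a different effect on the 2 days was not shown.

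Against the intact control fewer members were called. The median log2 fold change of the members against control was -0.01, -0.08, -0.14, -0.34 and -0.22 from 3 h to day 7. Over all genes tested it was 0.04, 0.01, 0.02 and 0.02 from 12 h to day 7. The members' day 7 median was smaller in size than that of day 3, unlike against sham. No member was called at 3 h, 12 h or day 1, where 0.015%, 0.471% and 0.16% of all genes were called lower. At an unadjusted p under 0.05 there were 0, 5 and 4 members at these times, against 9.15%, 16% and 11% of all genes, and DESeq2 called none by the rule. On day 3 Rims1 was called lower at -0.63 ± 0.14 (SE, adjusted p 0.00314), with 0.29% of all genes called lower, and on day 7 Rph3a and Vamp1 were called lower at -0.92 ± 0.19 and -1.47 ± 0.32 (SE, adjusted p 0.00178 and 0.00378), with 0.416% of all genes called lower. Without MCAO day 7 replicate C, or without control replicate A or D, none was called on day 7, and 1 and 4 were called without MCAO day 7 replicate A and E. Over all genes 23, 13, 11, 60 and 87 were called lower in these fits, in that order, against 83 by the main rule. On day 3, 7 were called without MCAO replicate A (0.933% of all genes) and none without MCAO replicate C, D or E or control replicate A or D. In the fits with none, 24, 36, 22, 23 and 26 of all genes were called lower, against 58 by the main rule. The comparisons against control share the control libraries with each other and the MCAO libraries with those against sham. Syp reached -0.89 on day 3 against control (adjusted p 0.0125), below all 4 control libraries.

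The sham operation alone gave the background. In edgeR's test of sham against control 0 of 35 members were called at each of the 5 times and for their mean, and DESeq2 also called none. At an unadjusted p under 0.05 there were 3 members on day 7 and 0 in each of the other comparisons, against 3.69%, 5.43%, 4.31%, 3.66% and 8.03% of all genes from 3 h to day 7 and 4.77% for the mean. Over all genes 0%, 0.0351%, 0.01%, 0% and 0% were called at the 5 times and 0.02% for their mean. The median log2 fold change of the members was 0.02, 0.03, 0.07, -0.04 and 0.13 from 3 h to day 7. The sham day 7 group had the highest mean level of the members of all 11 groups, and Cplx1 was at 0.43 there (adjusted p 0.624), so its difference from control on day 7 was smaller than that from sham.

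Other presynaptic genes were counted in a list of 87 that holds no member. On day 3, 3 were called higher and 0 lower, and on day 7, 0 higher and 7 lower, with medians of -0.22 and -0.08. The 3 called higher on day 3 were Syngr2, Vamp3 and Stxbp2, at 2.39, 0.94 and 0.84 (adjusted p 3.26e-04, 0.00507 and 0.00821). They are relatives of vesicle proteins that many cells outside the nervous system also use. Of the 7 that fell on day 7, Rims3, which encodes a short RIM protein, was at -1.83 ± 0.34 (SE, adjusted p 4.39e-04), and Cadps2, a priming factor of dense-core vesicles, at -1.05 ± 0.24 (SE, adjusted p 0.00329). The other 5 were Synj2, Sh3gl2, Syt13, Lin7b and Napa, between -0.85 and -0.64.

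Some other neuronal genes fell on day 7, when 1.43% of all genes were called lower, against 0.26% on day 3. Of 12 neuronal genes that are not presynaptic, 0 were called on day 3 and 3 on day 7 (Rbfox3, Eno2 and Nefm, at -0.87, -0.66 and -0.97), and the medians were -0.04 on day 1, -0.28 on day 3 and -0.23 on day 7. Their summed level was 5864 to 8034 CPM in MCAO and 8239.8 to 9057 CPM in sham on day 7, without overlap. Rorb, a marker of cortical excitatory neurons chosen after its value was seen, was called lower on day 7 at -1.35. The summed level of the cortical excitatory markers, Rorb among them, was 549 to 728 CPM in MCAO on day 7. In sham it was 970 to 1379 CPM, without overlap. On day 3 the sums overlapped, at 582 to 924 CPM in MCAO and 901 to 1138 CPM in sham. The part of these neuronal genes in the members' result was not tested.

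**Figure D4:**
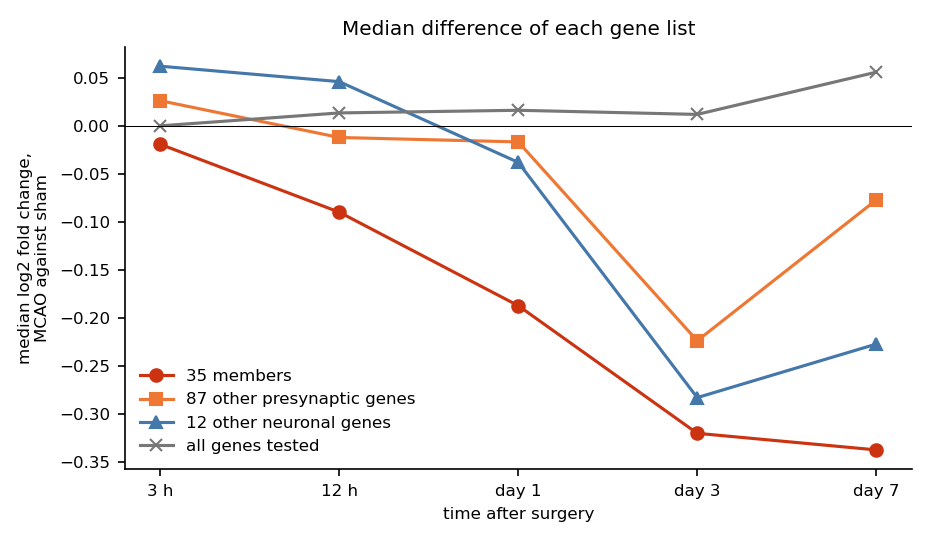
Median log2 fold change of MCAO against sham (vertical axis) at each time after surgery (horizontal axis) for the 35 members, 87 other presynaptic genes, 12 other neuronal genes and all 19970 genes tested. Lines join the medians of a list. The members run from -0.02 at 3 h to -0.34 on day 7, and all genes stay within 0.06 of 0.

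Some markers of microglia, peripheral myeloid cells and fibroblasts were called higher on the days on which members were called lower. Of 10 microglial markers 8 were called higher on day 3 and 6 on day 7, with sums of 773 to 3176 CPM in MCAO against 342 to 437 CPM in sham on day 3 and 1053 to 4519.6 CPM against 476 to 609 CPM on day 7. Of 8 markers of peripheral myeloid cells 5 and 4 were higher, and of 8 of fibroblasts 3 and 5. Over all genes 3.76% and 2.07% were called higher on day 3 and day 7. No marker of these 3 lists was at 0 in all MCAO libraries of either day, and the part of these cells in the members' result was not tested. Summed astrocyte, oligodendrocyte and endothelial markers overlapped between MCAO and sham on both days. Astrocyte sums were 4566 to 5516 CPM in MCAO and 4979 to 5361 CPM in sham on day 3. Endothelial sums were 276 to 355 CPM in MCAO and 271 to 351 CPM in sham on day 7. On day 3 endothelial sums were 286 to 649 CPM in MCAO (median 458) and 295 to 325 CPM in sham. On day 7 astrocyte sums were 3808 to 5942 CPM in MCAO (median 5737) and 4506 to 5631 CPM in sham. Oligodendrocyte sums on day 7 were 1929 to 5274 CPM in MCAO (median 3312) and 1836 to 2571 CPM in sham. In these last cases the MCAO median lay above the highest sham library. Scaled to the added ERCC spike-in RNA instead, the median of all genes was -0.22 on day 3 and 0.14 on day 7, and relative to it the members' median was -0.31 on day 3 and -0.38 on day 7, against -0.33 and -0.39 with the main scaling.

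Vamp1, Syt2 and Cplx1 moved with Pvalb, the calcium-binding protein of fast-spiking interneurons, among animals without a lesion. Over the 24 control and sham libraries, Pearson's r between log2(CPM + 1) of Pvalb and of Vamp1 was 0.89 (Spearman's rho 0.93), with Syt2 0.94 (rho 0.93) and with Cplx1 0.80 (rho 0.81), and between Vamp1 and Syt2 0.90 (rho 0.89). By permutation with 100000 resamples the 2-sided p was 1e-05 for each r, the smallest these resamples can give, and at most 2e-05 for rho, also after adjustment over the 4 pairs. For pairs picked from these same values, such p-values do not measure chance. Without the 2 libraries farthest from the median of the first gene, r was 0.94, 0.92, 0.83 and 0.89, and for deviations from the group means it was 0.88, 0.94, 0.83 and 0.90. These pairs were chosen after their values were seen. Rorb and Rims3 also differed between these libraries. In sham 3 h replicates A to D, Pvalb was at 185, 39.2, 47.1 and 206 CPM. Rorb was at 332, 162, 145 and 267 CPM there, and Rims3 at 191, 82.9, 77.1 and 180.4 CPM. Correlations with Rorb and Rims3 were not computed, so the covariation was not shown to be particular to Pvalb.

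On day 7 Pvalb was at 35.2, 31.6, 32.7, 26.4 and 24.4 CPM in MCAO replicates A to E and 147, 82.6, 142 and 246 CPM in sham replicates A to D. All 5 MCAO libraries lay below sham, and the log2 fold change was -2.36 ± 0.52 (SE, adjusted p 0.00259). Vip, the peptide of another interneuron class, was at -1.59 ± 0.33 (SE, adjusted p 0.00137). Of the 8 interneuron markers these 2 were called, with 1.43% of all genes called lower. The summed level of the interneuron markers on day 7 was 810 to 1118 CPM in MCAO and 1137 to 1467 CPM in sham, without overlap. The part of Pvalb-expressing cells in the fall of Vamp1 was not tested.

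**Figure D5:**
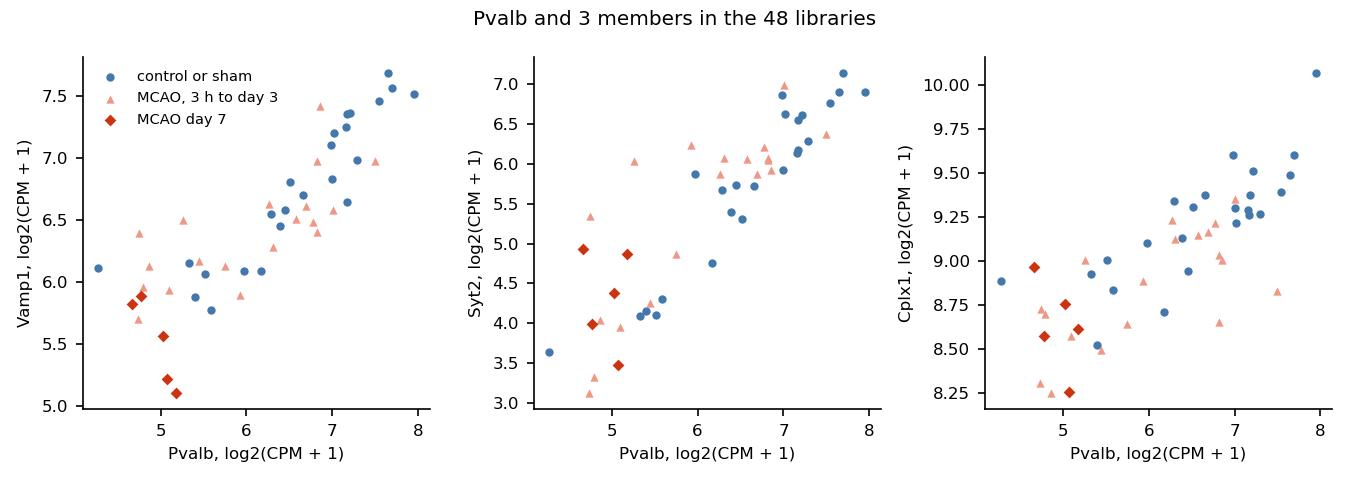
Log2(CPM + 1) of Vamp1, Syt2 and Cplx1 (vertical axes) against that of Pvalb (horizontal axes) in the 48 libraries. Circles are control and sham libraries, triangles MCAO libraries from 3 h to day 3, and diamonds MCAO day 7 libraries. In the 24 circles r is 0.89, 0.94 and 0.80. The 5 diamonds lie in the lower part of the Pvalb, Vamp1 and Syt2 axes. On the Cplx1 axis they lie below that gene's median over the 48 libraries, 519 CPM.

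A presynaptic gene outside the members, chosen after its values were seen, behaved unlike any member. Synpr, which encodes synaptoporin, a relative of synaptophysin in some cortical and hippocampal terminals, was at 3.01, 2.84, 4.61, 3.02 and 8.20 CPM in MCAO 3 h replicates A to E and 44.7, 52.4, 46.2 and 73.0 CPM in sham 3 h replicates A to D, and was called lower at -3.60 ± 0.45 (SE, adjusted p 2.17e-06). At 12 h it was the sham libraries that were low, at 5.03, 4.17, 13.3 and 4.29 CPM, against 82.0, 48.5, 24.5, 24.1 and 50.03 CPM in MCAO, and it was called higher at 2.73 ± 0.44 (SE, adjusted p 3.29e-04). The control libraries were at 52.5 to 118 CPM. Syp, its relative among the members, did not follow it, at 0.10 and 0.26 at these times (adjusted p 0.978 and 0.652).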

How the data were processed

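Whole counts per gene were deposited by the authors for 48 libraries made with a 3′ tag kit (QuantSeq FWD) with ERCC spike-in RNA, so a count stands for a transcript end and is not divided by length. Per the labels and the study's methods, trimmed reads cleared of rRNA were aligned to GRCm38 with STAR 2.5.2b and counted with HTSeq over GENCODE vM8. Deposited variance-stabilized log2 values served only as another scale for the mean level. Groups came from the labels, which give separate samples. The paper states a minimum of 4 mice per condition.

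Entries that name no gene held 51.0% to 60.2% of all counts and spike-ins 3.71% to 5.97%, and both were left out. Symbols were matched by Ensembl ID, for 46488 of 46983 genes, and coordinates are those of GENCODE vM21 on the same build. Genes with more than 10 counts in all (19970) were fitted with edgeR 4.0.16 (TMM scaling, glmQLFit and glmQLFTest, 11 groups in a single fit, biological coefficient of variation 24.9%). Calls needed a Benjamini-Hochberg adjusted p under 0.01 over all genes and an absolute log2 fold change over 0.58. CPM uses TMM library sizes. The fit was also run on counts simulated from its own estimates of spread, which cannot show whether that model suits these libraries. DESeq2 1.42.0, other scalings, filters, a replicate block and fits without each library were alternatives.

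All 35 members could be named. Values in every library were given for members called in MCAO against sham and for the 3 with the highest mean CPM, and for a few others chosen after their values were seen. Other presynaptic genes were named where called. The members and the lists were chosen with earlier results of these data known. The 95% intervals come from the fitted standard errors and so hold the spread between samples. No 2 libraries were identical. Replicate letters did not pair the samples: over 20 MCAO and sham pairs with a shared letter, the deviations from group means correlated at -0.31 to 0.17, over 0.1 in 8 pairs. Results for some genes are not reported here.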

Additional observations from a re-analysis of the deposited data

Results flagged for a closer look

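Of 110 group values examined (8 members, the members' share of counts and their mean level, each in 11 groups), 5 had 1 library farther from the rest of its group than Dixon's 95% value allows, and chance gives about 1 in 20. Cplx1 was low in sham day 1 replicate D, at 472 CPM, with the other 3 libraries at 613 to 633 CPM. Rims2 was high in MCAO 12 h replicate D, at 142 CPM, with the others at 74.4 to 87.1 CPM. In MCAO day 7 replicate C the members took 1.30% of gene counts against 1.73% to 1.89% in the other 4 libraries, and their mean log2(CPM + 1) was 7.75 against 8.12 to 8.20. In control replicate B the share was 1.86% against 1.88% to 1.89%, a gap set by the closeness of the other 3 libraries.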

How the results depend on the processing

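No result changed its direction while called. Counts of members lower in MCAO than in sham on day 3 (2 by the main rule) were 1 with DESeq2 size factors, 1 with the DESeq2 test, 0 with only the groups compared, 6 with the adjusted p under 0.05 alone, and 7 without MCAO day 3 replicate A and MCAO day 7 replicate C, an alternative chosen after seeing the data. With 1 library left out they ran from 0 to 6. On day 7 (4 by the main rule) they were 12 with the adjusted p under 0.05 alone and 7 with no filter on low counts, and ran from 2 to 6 with 1 library left out. For the mean of 5 times (0) they were 13 with the adjusted p alone and 1 with spike-in scaling, and ran from 0 to 1. Against control on day 3 (1) they were 7 with the adjusted p alone, 3 with the DESeq2 test, 2 with no filter, 5 with spike-in scaling, 7 without both libraries that stood apart, and 0 to 7 with 1 library left out. On day 7 (2) they were 4 with the adjusted p alone, 0 without both libraries, and 0 to 4 with 1 left out. The number of all genes called lower moved too. Against sham on day 3 it was 52 by the main rule, then 43, 86, 16 (of 16777), 337 and 309 in the order given. On day 7 it was 285, then 794 and 408 (of 26575), and for the mean of 5 times 77, then 1021 and 104. Against control on day 3 it was 58, then 283, 93, 77 (of 26575), 345 and 202. It was 83, then 242 and 24, against control on day 7.

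With the replicate letter as a block, the counts against sham stayed at 2 on day 3 and 4 on day 7, and against control on day 3 the count was 2 instead of 1. Over all genes 43, 245 and 49 were called lower there, against 52, 285 and 58 by the main rule. The letters only name the samples.

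Spike-in scaling moved medians of the members by more than the replicate SD: against sham to -0.13 at 3 h, -0.054 on day 1 and -0.53 on day 3, against control to -0.15 at 3 h, -0.36 at 12 h and -0.63 on day 3, and for sham against control to -0.14 at 12 h, -0.13 on day 1, -0.12 on day 3, -0.12 on day 7 and -0.11 for the mean of 5 times. The change of the effect moved to 0.065 for day 1 minus 12 h, -0.49 for day 3 minus day 1 and 0.29 for day 7 minus day 3. That last change, -0.02 in the report, was 0.29 without both libraries that stood apart (2 members higher) and ran from -0.070 to 0.18 with 1 library left out, highest without MCAO day 3 replicate A. The causes were not tested. Over all genes spike-in scaling called 463 higher and 131 lower on day 3 against 750 and 52, and 403 and 86 on day 7 against 413 and 285. The members with the fewest counts, Doc2b and Slc17a6, had 9 to 103 and 21 to 187 counts in a library.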
